A study of Homo sapiens with 30 samples.

Results

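Semaphorins are guidance ligands, and plexins and neuropilins are the receptors they bind. The members of this gene family were taken from the gene table by symbol: the semaphorins of classes 3 to 7, the plexins A to D, and NRP1 and NRP2. The rule found 31 of 57373 genes, of which 20 are ligands and 11 are receptors, namely 9 plexins and 2 neuropilins. The low-count filter kept 30 of the 31, that is 19 ligands and all 11 receptors. SEMA5B, with 0 to 5 counts in any library, was not tested. Every library came from U2OS, a human osteosarcoma cell line. Messenger RNA was sequenced in 6 groups of 5 replicates, and each cell group is named below by what it received. Dhelix FOXP2 + CHIR cells were transfected with FOXP2 lacking residues 264 to 272 after CHIR99021, WT FOXP2 + CHIR cells with full-length FOXP2 after CHIR99021, and CHIR cells received CHIR99021 without a FOXP2 construct. Dhelix FOXP2 cells and WT FOXP2 cells received the same constructs without CHIR99021, and mock cells received neither. CHIR99021, written CHIR below, inhibits the kinase GSK3 and thereby stabilises β-catenin, the WNT pathway's coactivator. It was given at 5 µM, beginning 72 hours ahead of transfection, and 500 ng of plasmid was left on the cells for 48 hours. FOXP2 is a forkhead transcription factor. The labels do not say whether mock or CHIR cells received an empty plasmid, so in a contrast with them an effect of FOXP2 cannot be told apart from an effect of transfected DNA.

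Total counts ran from 15755842 to 29466652 per library. CPM below are counts scaled to the normalised library size (CPM is the usual unit for this), and ± is an SD over 5 libraries unless SE is written. FOXP2 itself stood at 11903 to 14236 CPM in dhelix FOXP2 + CHIR cells, 14041 to 16321 in WT FOXP2 + CHIR cells, 0.249 to 1.33 in CHIR cells, 4655 to 6359 in dhelix FOXP2 cells, 5906 to 7806 in WT FOXP2 cells, and 0.577 to 1.25 in mock cells. The FOXP2 level thus differed between constructs and with CHIR, and its part in the differences below was not tested. Markers of the same class differed in level. Of the bone or mesenchymal markers, VIM was at 1233 to 2644 CPM and COL1A1 at 150 to 1354. RUNX2 was at 7.13 to 112 CPM, SPP1 at 5.71 to 23.7 and ALPL at 1.08 to 21.7, while SP7, BGLAP and IBSP had 0 to 7 counts. Of the epithelial markers, the keratins KRT8 and KRT18 were at 153 CPM or more in every library. EPCAM was at 3.44 to 9.01 CPM, CDH1 at 0.253 to 1.63 and KRT19 at 0 to 0.281. The summed level of the 8 bone or mesenchymal markers was 1474 to 1602 CPM in dhelix FOXP2 + CHIR cells, 1529 to 1632 in WT FOXP2 + CHIR cells, 1811 to 2221 in CHIR cells, 2317 to 2366 in dhelix FOXP2 cells, 2792 to 2924 in WT FOXP2 cells and 3284 to 3418 in mock cells. For the 5 epithelial markers the sum was 572 to 620.2 CPM in dhelix FOXP2 + CHIR cells, 543 to 609 in WT FOXP2 + CHIR cells, 331 to 410.2 in CHIR cells, 641 to 689 in dhelix FOXP2 cells, 637 to 672 in WT FOXP2 cells and 360 to 400.4 in mock cells. All 4 nervous system markers were found, and their summed level was 105 to 127 CPM in dhelix FOXP2 + CHIR cells, 98.9 to 119 in WT FOXP2 + CHIR cells, 13.6 to 21.5 in CHIR cells, 93.5 to 103 in dhelix FOXP2 cells, 66.3 to 76.7 in WT FOXP2 cells and 9.11 to 11 in mock cells. GFAP and MBP, which define glia, had at most 14 and 12 counts in any library, while RBFOX3 was at 4.99 to 14.6 CPM and SYP at 3.57 to 117 CPM. The 4 blood markers summed to 12 to 14.1 CPM in dhelix FOXP2 + CHIR cells, 17.8 to 19.9 in WT FOXP2 + CHIR cells, 2.26 to 2.98 in CHIR cells, 10.4 to 11.9 in dhelix FOXP2 cells, 12.3 to 13.8 in WT FOXP2 cells and 0.294 to 0.715 in mock cells. The 3 endothelial markers found summed to 1.32 to 2.37 CPM in dhelix FOXP2 + CHIR cells, 1.04 to 1.95 in WT FOXP2 + CHIR cells, 1.03 to 1.71 in CHIR cells, 2.26 to 2.79 in dhelix FOXP2 cells, 1.85 to 2.34 in WT FOXP2 cells and 3.38 to 4.35 in mock cells. The nervous system and blood sums were higher in all libraries with FOXP2 than in CHIR and mock cells, and so was the epithelial sum. The part of these markers in the results was not tested. CHIR replicate 1 stood apart from its group, with a mean chi-square per gene of 28.5 against its replicates, where the other CHIR libraries had 7.4 to 10.8. Dhelix replicate 5 had 10.9 where the others had 3.92 to 4.62, and WT + CHIR replicate 4 had 5.98 where the others had 2.97 to 4.47. Without these 3 libraries no call reversed, and the calls that were lost are named where they are given. PLXNB3 shares 20.4% of its exon bases with SRPK3 on the same strand, so reads from the shared bases cannot be assigned by strand. SEMA4G shares 22.3% with MRPL43 on the opposite strand, and since the strand setting of the counting is not given in the sources used here, reads of this pair may be mixed.

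Semaphorins carry a Sema domain that docks onto the matching domain of a plexin, and the plexin's cytoplasmic part then acts on small GTPases of the Rap and Ras families, which loosens adhesion and collapses growth cones. Class 3 semaphorins are secreted and mostly need a neuropilin as a co-receptor, classes 4 to 6 span the membrane, and SEMA7A is held by a lipid anchor. In bone, SEMA3A and SEMA4D are known for signals between osteoblasts and osteoclasts, and in tumours the neuropilins also serve as co-receptors of VEGF.

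Per length of transcript, PLXNB2, a receptor of class 4 semaphorins, had the highest level of all 31 members in mock cells, at 59.2 ± 1.86 RPKM (CPM per kilobase of exon). It was followed by SEMA6B at 34.4 ± 1.4, SEMA3C at 21.8 ± 0.644 and PLXNA1 at 21 ± 0.808 RPKM. SEMA3C and PLXNA1 did not differ beyond their spread. NRP1 stood at 18.1 ± 0.47 RPKM, whereas NRP2 stood at 0.156 ± 0.023 RPKM. The 20 ligands together reached 137 to 143 RPKM in mock cells and the 11 receptors 126 to 134 RPKM. The exon lengths come from GENCODE v29 on GRCh38, a later build than the hg19 used for counting.

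The balance of ligands to receptors shifted with the group, and so did its make-up. The ratio of summed ligand RPKM to summed receptor RPKM was 0.949, 0.974, 0.987, 0.987 and 1.05 in dhelix FOXP2 + CHIR cells, 1.07, 1, 1.06, 1.06 and 1.03 in WT FOXP2 + CHIR cells, and 0.673, 0.628, 0.61, 0.616 and 0.636 in CHIR cells. Without CHIR it was 1.33, 1.41, 1.35, 1.34 and 1.36 in dhelix FOXP2 cells, 1.29, 1.33, 1.3, 1.33 and 1.29 in WT FOXP2 cells, and 1.04, 1.09, 1.06, 1.04 and 1.07 in mock cells. CHIR cells lay below every other library and the FOXP2 groups without CHIR lay above every other library. The summed ligand level of the FOXP2 groups was close to that of mock cells, at 125 to 131 RPKM in dhelix FOXP2 cells and 125 to 132 RPKM in WT FOXP2 cells. Its make-up differed: SEMA7A alone held 48.8 to 52.1% of it in dhelix FOXP2 cells and 54.9 to 58.7% in WT FOXP2 cells, against 6.77 to 7.4% in mock cells. Among receptors, NRP1 held 31.2 to 43.4% of the summed level in CHIR cells and 13 to 14.6% in mock cells. These sums were not tested. In bulk RNA, fewer cells expressing a gene and less RNA per cell cannot be told apart.

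**Figure D1:**
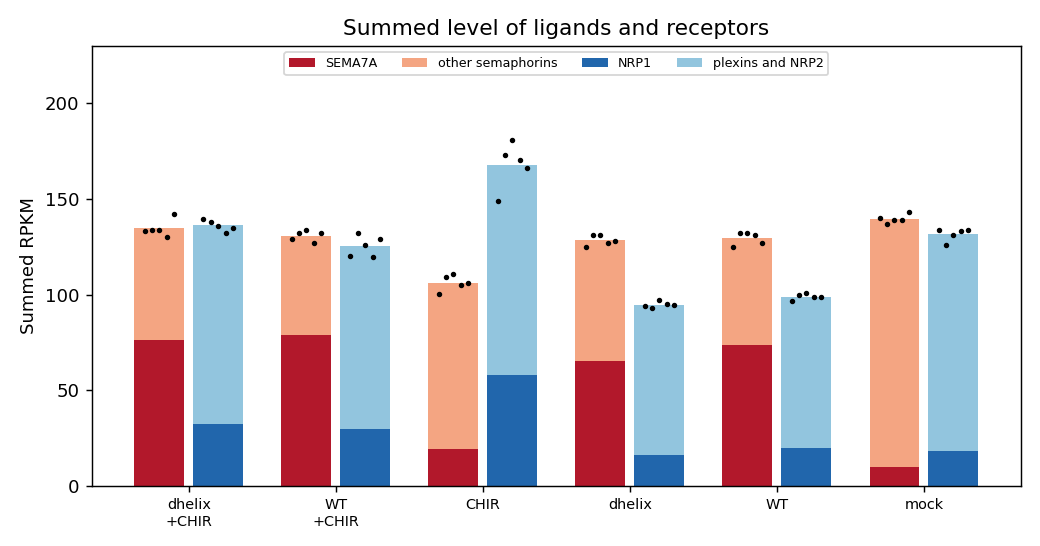
Summed level of the 20 semaphorins (left bar of each pair) and of the 11 plexins and neuropilins (right bar) in the 6 groups, in RPKM on an axis that starts at 0; bars are means of 5 libraries, dots are single libraries, and the darker part of each bar is SEMA7A or NRP1. SEMA7A holds 54.9 to 58.7% of the ligand sum in WT FOXP2 cells and 6.77 to 7.4% in mock cells, and receptors exceed ligands most in CHIR cells.

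Against mock cells, most members were lower in each treated group. In dhelix FOXP2 cells 4 rose and 21 fell of 30 at an adjusted p under 0.05, where 80.5% of all 18485 genes tested passed in either direction, 39.6% as higher and 40.9% as lower. In WT FOXP2 cells 5 rose and 23 fell, beside 81.6% of all genes in either direction, 39.9% as higher and 41.6% as lower. In CHIR cells 7 rose and 17 fell, beside 74.1%, 38.8% and 35.3% of all genes. The share that passed in either direction was near the background in all 3 contrasts, since most genes passed. The median log2 fold change of the members was -0.76 in dhelix FOXP2 cells against -0.02 over all genes, -0.91 in WT FOXP2 cells against -0.02, and -0.76 in CHIR cells against 0.02. These 3 contrasts share the mock libraries. The members that rose with either construct include SEMA4A, which passed the low-count filter only through the groups with FOXP2, where it was higher. A filter at a mean of 1 CPM removed SEMA4A, and 3 members then rose with dhelix FOXP2 and 4 with WT FOXP2. By role, 15 of 19 ligands and 8 of 11 receptors fell in WT FOXP2 cells, and 11 ligands and 6 receptors fell in CHIR cells. The median of the ligands was -0.91 and that of the receptors -0.83 in WT FOXP2 cells, and in CHIR cells these medians were -0.97 and -0.33. Without CHIR replicate 1, PLXNA3 and PLXNB2 also passed as higher in CHIR cells (adjusted p = 0.0043 and 1e-04).

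**Figure D2:**
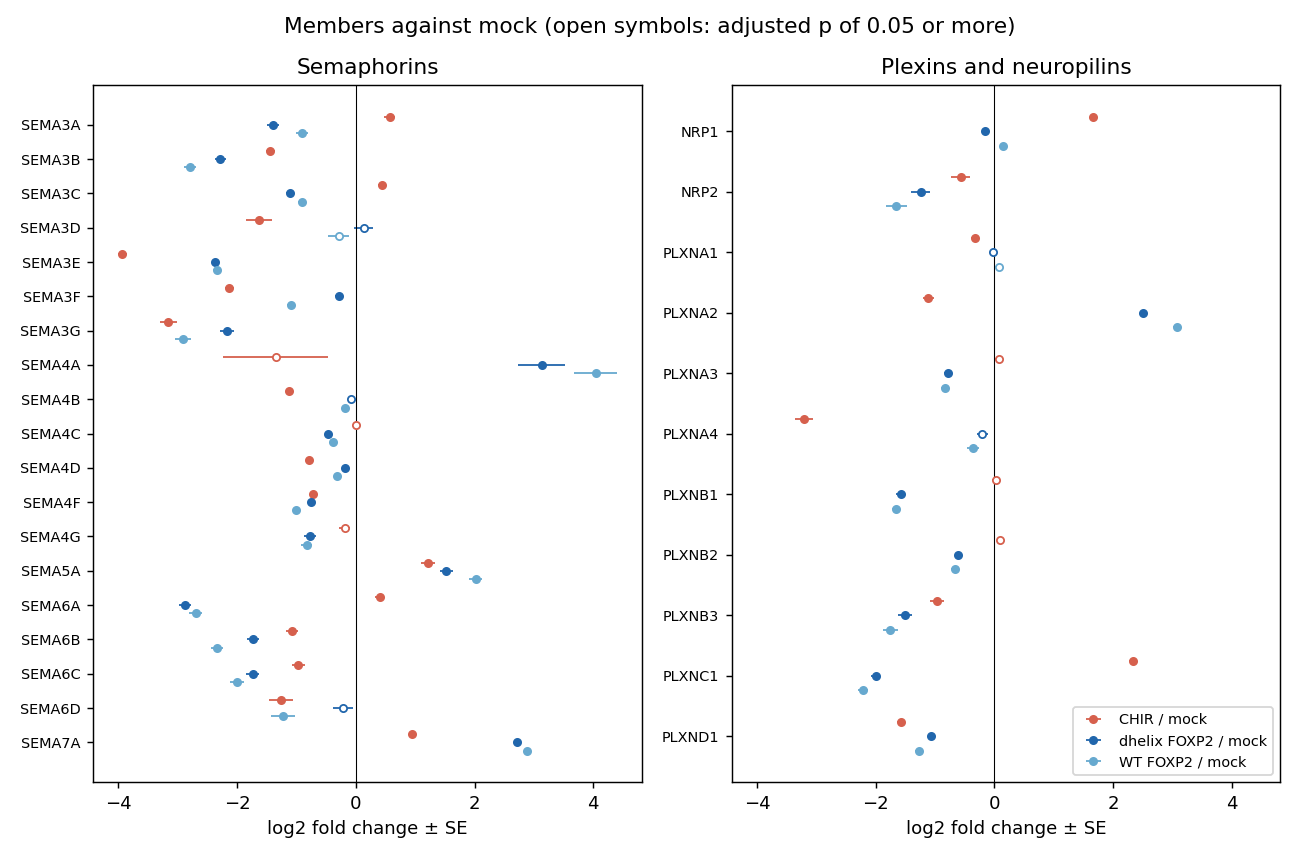
Log2 fold change with its SE (horizontal axis) of the 30 tested members in CHIR cells, dhelix FOXP2 cells and WT FOXP2 cells, each over mock cells; semaphorins are in the left panel and receptors in the right panel, and open symbols did not pass an adjusted p under 0.05. SEMA7A, SEMA5A and PLXNA2 lie far to the right with either FOXP2 construct, while NRP1 and PLXNC1 lie to the right with CHIR.

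SEMA7A and its plexin receptor, PLXNC1, moved in opposite directions with FOXP2, and both rose with CHIR in cells without FOXP2. SEMA7A is the GPI-anchored semaphorin, which binds plexin C1 and also β1 integrins. With CHIR, SEMA7A stood at 285, 291, 286, 273 and 313 CPM in dhelix FOXP2 + CHIR cells, 293, 299, 311, 290.2 and 306 CPM in WT FOXP2 + CHIR cells, and 62.4, 73.1, 79.5, 76.8 and 70.8 CPM in CHIR cells. Without CHIR, SEMA7A stood at 232, 259, 257, 242 and 245 CPM in dhelix FOXP2 cells, 261, 295, 287, 291 and 267 CPM in WT FOXP2 cells, and 36.2, 38.2, 39, 38.9 and 36.9 CPM in mock cells. All 20 libraries with FOXP2 lay far above the 10 without it, and CHIR cells lay above mock cells. The log2 fold change was 2.71 ± 0.05 (SE, adjusted p = 2.9e-33) in dhelix FOXP2 over mock cells, 2.89 ± 0.05 (SE, adjusted p = 4e-34) in WT FOXP2 over mock cells, and 0.94 ± 0.05 (SE, adjusted p = 1.4e-18) in CHIR over mock cells. In the presence of CHIR the FOXP2 difference was 2.00 for dhelix and 2.05 for WT. It was smaller than without CHIR, by the interaction, which was -0.71 ± 0.07 (SE, adjusted p = 2.1e-11) for dhelix and -0.84 ± 0.07 (SE, adjusted p = 2.6e-13) for WT. Within the WT FOXP2 groups SEMA7A differed with CHIR by 0.10 (adjusted p = 0.055), which did not pass. Without the 3 libraries that stood apart it passed within the WT FOXP2 groups, at 0.09 (adjusted p = 0.024). In that same fit the difference within the dhelix FOXP2 groups was 0.19 (adjusted p = 2.5e-05).

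PLXNC1, the only plexin of class C, had group means between 4.09 CPM in WT FOXP2 cells and 95.2 CPM in CHIR cells. In the CHIR-treated groups its level was 10, 7.5, 8.94, 10 and 6.36 CPM in dhelix FOXP2 + CHIR cells, 5.2, 5.07, 4.38, 4.62 and 4.5 CPM in WT FOXP2 + CHIR cells, and 99.1, 91.6, 100, 94.8 and 90.6 CPM in CHIR cells. In the groups without CHIR its level was 4.96, 4.87, 4.93, 4.69 and 4.04 CPM in dhelix FOXP2 cells, 4, 3.49, 4.69, 4.13 and 4.12 CPM in WT FOXP2 cells, and 16.7, 18.5, 19.3, 19.5 and 20.7 CPM in mock cells. CHIR cells were above all other libraries, and mock cells were above all 20 libraries with FOXP2. PLXNC1 rose by 2.33 ± 0.07 (SE, adjusted p = 2.4e-27) on the log2 scale in CHIR over mock cells. It fell in dhelix FOXP2 over mock cells by 2.00 ± 0.08 (SE, adjusted p = 2.2e-22) and in WT FOXP2 over mock cells by 2.21 ± 0.09 (SE, adjusted p = 9.5e-23). Among CHIR-treated cells the log2 fold change over CHIR cells was -3.47 ± 0.08 (SE, adjusted p = 1.2e-30) with dhelix FOXP2 and -4.31 ± 0.08 (SE, adjusted p = 1.4e-32) with WT FOXP2. CHIR over no CHIR gave 0.86 ± 0.10 (SE, adjusted p = 6.6e-10) within the dhelix FOXP2 groups and 0.23 ± 0.11 (SE, adjusted p = 0.069) within the WT FOXP2 groups. The interaction was -1.47 for dhelix and -2.10 for WT (adjusted p = 1.6e-13 and 2.1e-16).

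The start-site windows of these genes and of SEMA3E, the ligand with the strongest fall under CHIR, are shown as the sequence at the starts of this ligand and receptor pair and of that ligand. They are RefSeq windows of GRCh38.p14, each reading 5′ to 3′ on the gene's strand with 250 bases upstream of the start and 50 downstream, and capitals mark a match to a searched motif. The windows lie at chr15:74433909-74434208 on the minus strand for SEMA7A, chr12:94148327-94148626 on the plus strand for PLXNC1, and chr7:83649090-83649389 on the minus strand for SEMA3E.
SEMA7A: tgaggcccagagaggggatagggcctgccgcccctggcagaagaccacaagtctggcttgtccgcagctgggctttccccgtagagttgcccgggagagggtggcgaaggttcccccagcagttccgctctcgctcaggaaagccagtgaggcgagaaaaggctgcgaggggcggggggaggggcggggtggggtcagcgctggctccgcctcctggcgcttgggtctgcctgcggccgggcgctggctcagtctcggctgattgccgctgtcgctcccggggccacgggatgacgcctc
PLXNC1: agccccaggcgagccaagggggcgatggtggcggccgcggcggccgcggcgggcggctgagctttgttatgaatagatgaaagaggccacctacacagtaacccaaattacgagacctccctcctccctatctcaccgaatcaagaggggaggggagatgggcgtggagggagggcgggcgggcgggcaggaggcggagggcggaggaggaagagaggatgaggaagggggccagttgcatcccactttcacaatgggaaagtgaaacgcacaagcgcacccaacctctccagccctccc
SEMA3E: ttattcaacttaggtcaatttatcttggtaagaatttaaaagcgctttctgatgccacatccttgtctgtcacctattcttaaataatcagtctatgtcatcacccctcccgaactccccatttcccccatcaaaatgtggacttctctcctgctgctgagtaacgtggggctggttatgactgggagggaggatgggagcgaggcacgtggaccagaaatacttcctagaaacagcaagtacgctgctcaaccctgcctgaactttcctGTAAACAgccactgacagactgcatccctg
The motifs searched on both strands were the TCF/LEF core CTTTGA, the forkhead core TGTTTAC and the AP-1 core TGANTCA, none of which overlaps another in these windows. The SEMA3E window shown holds the reverse complement of the forkhead core, 20 bases after the start. Another SEMA3E window, at chr7:83641382-83641681, holds none of the 3. The SEMA7A window and the PLXNC1 window shown hold none of the 3, and neither does another SEMA7A window at chr15:74433655-74433954. A second PLXNC1 window at chr12:94262369-94262668 holds an AP-1 core 91 bases before its start. Of the 48 windows of the 27 members matched by symbol, 5 held the TCF/LEF core, beside 12.9% of all 35116 windows, 3 held the forkhead core, beside 3.42%, and 1 held the AP-1 core, beside 7.71%. A match is a description of letters and not of binding. No window was matched for NRP1, SEMA3A, SEMA6A or SEMA6B.

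**Figure D3:**
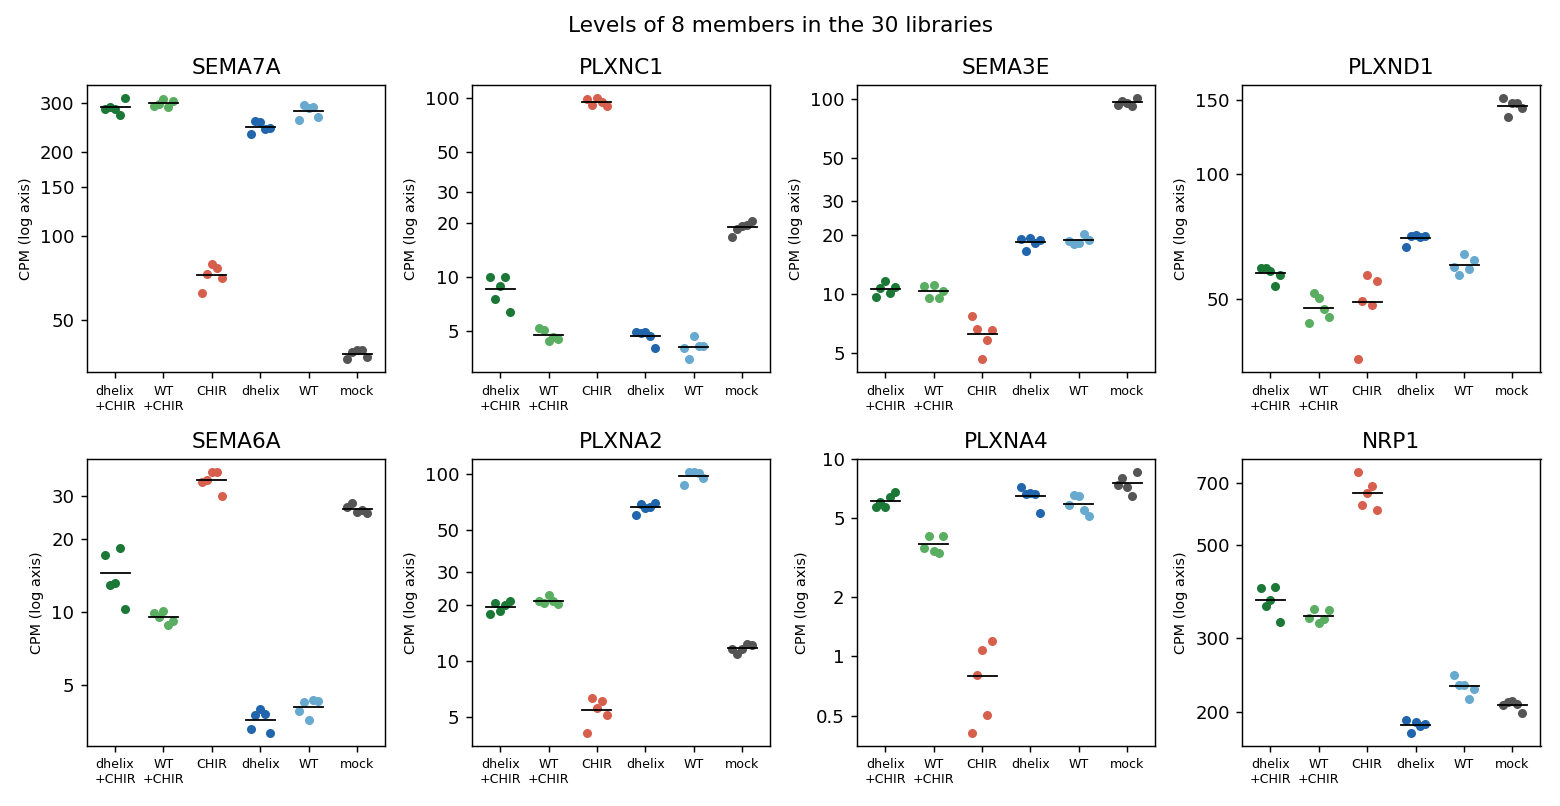
CPM on a log axis (vertical) of 8 members in the 6 groups (horizontal); each dot is a library and each line the mean of 5. PLXNC1 and NRP1 are highest in CHIR cells, SEMA3E and PLXND1 are highest in mock cells, and SEMA7A and PLXNA2 are raised in the 4 groups with FOXP2.

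SEMA3E and PLXND1 were both highest in mock cells. SEMA3E is a secreted ligand known for binding plexin D1 directly, without a neuropilin, and in mouse for steering blood vessels. With CHIR, SEMA3E stood at 9.66, 10.8, 11.7, 10.1 and 10.9 CPM in dhelix FOXP2 + CHIR cells, 11, 9.58, 11.2, 9.53 and 10.4 CPM in WT FOXP2 + CHIR cells, and 7.71, 6.65, 4.67, 5.81 and 6.55 CPM in CHIR cells. In cells without CHIR, SEMA3E stood at 19.1, 16.6, 19.4, 18.3 and 19 CPM in dhelix FOXP2 cells, 18.7, 18, 18.4, 20.3 and 19 CPM in WT FOXP2 cells, and 92.8, 97.6, 95.6, 91.9 and 101 CPM in mock cells. The mock libraries lay above all others, and CHIR cells lay below all others. Over mock cells the log2 fold change was -2.37 ± 0.06 (SE, adjusted p = 2.3e-29) with dhelix FOXP2, -2.34 ± 0.06 (SE, adjusted p = 6.2e-29) with WT FOXP2, and -3.93 ± 0.07 (SE, adjusted p = 2.6e-33) with CHIR. Over CHIR cells it was 0.76 ± 0.09 (SE, adjusted p = 9.6e-10) with dhelix FOXP2 and 0.73 ± 0.09 (SE, adjusted p = 1.7e-09) with WT FOXP2. SEMA3E was therefore lower with FOXP2 in untreated cells and higher with FOXP2 in CHIR-treated cells, and the interaction was 3.13 ± 0.11 (SE, adjusted p = 2.2e-24) for dhelix and 3.06 ± 0.11 (SE, adjusted p = 3.4e-24) for WT.

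PLXND1, the plexin for SEMA3E, stood at 59.5, 59.5, 58.4, 53.7 and 57.2 CPM in dhelix FOXP2 + CHIR cells, 43.7, 51.8, 50.3, 47.2 and 45.3 CPM in WT FOXP2 + CHIR cells, and 35.9, 49.4, 57.1, 48.5 and 55.4 CPM in CHIR cells. In untreated cells it stood at 66.6, 70.8, 71.4, 70.4 and 70.8 CPM in dhelix FOXP2 cells, 59.8, 57.1, 64, 59.1 and 61.9 CPM in WT FOXP2 cells, and 152, 137, 148, 148 and 144 CPM in mock cells. No library of another group reached the mock libraries. The log2 fold change over mock cells was -1.06 ± 0.06 (SE, adjusted p = 4.7e-17) with dhelix FOXP2, -1.27 ± 0.07 (SE, adjusted p = 3.8e-19) with WT FOXP2, and -1.57 ± 0.07 (SE, adjusted p = 2.7e-21) with CHIR. On CHIR, WT FOXP2 cells did not pass against CHIR cells (-0.05 ± 0.07 SE, adjusted p = 0.54), and they passed as lower without CHIR replicate 1, at -0.12 (adjusted p = 0.022). The 2 constructs differed in sign over CHIR cells without the 3 libraries that stood apart. There PLXND1 was higher with dhelix FOXP2, at 0.15 (adjusted p = 0.0054), and lower with WT FOXP2, at -0.11 (adjusted p = 0.038).

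Of the 7 class 3 semaphorins, 6 fell with either FOXP2 construct over mock cells, the exception being SEMA3D, and with CHIR 5 fell and 2 rose. Of all genes 40.9%, 41.6% and 35.3% passed as lower with dhelix FOXP2, WT FOXP2 and CHIR. SEMA3B and SEMA3F, which lie near each other on chromosome 3 and are known as candidate tumour suppressors in lung cancer, and SEMA3G fell in all 3 contrasts. SEMA3F signals through NRP2. SEMA3F stood at 28.2, 34.5, 31, 30.5 and 31.1 CPM in dhelix FOXP2 + CHIR cells, 23.3, 24, 23.3, 23 and 23.8 CPM in WT FOXP2 + CHIR cells, and 11.7, 17.1, 16.6, 13.7 and 18 CPM in CHIR cells. In cells without CHIR, SEMA3F was at 53.1, 55.9, 55.4, 57.4 and 54.6 CPM in dhelix FOXP2 cells, 31.5, 30.5, 33.1, 30.1 and 31.9 CPM in WT FOXP2 cells, and 65.7, 67, 67.6, 66 and 71.2 CPM in mock cells. Mock cells were highest, dhelix FOXP2 cells lay above WT FOXP2 cells in every library, and CHIR cells were lowest. The log2 fold change over mock cells was -0.29 ± 0.06 (SE, adjusted p = 1.6e-05) with dhelix FOXP2, -1.10 ± 0.06 (SE, adjusted p = 3.7e-19) with WT FOXP2, and -2.13 ± 0.07 (SE, adjusted p = 1.8e-26) with CHIR. Over CHIR cells the sign turned, at 1.01 ± 0.07 (SE, adjusted p = 9.2e-16) with dhelix FOXP2 and 0.61 ± 0.07 (SE, adjusted p = 7.6e-10) with WT FOXP2. The interaction was 1.30 for dhelix and 1.71 for WT (adjusted p = 2.3e-15 and 2e-18).

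SEMA3B stood at 5.64, 5.18, 5.35, 5.79 and 5.9 CPM in dhelix FOXP2 cells, 4.8, 3.74, 3.5, 4.13 and 3.49 CPM in WT FOXP2 cells, and 27.9, 25.9, 25, 29.2 and 27.4 CPM in mock cells. It stood at 6.39, 5.86, 7.38, 6.45 and 5.96 CPM in dhelix FOXP2 + CHIR cells, 5.84, 6.97, 6.43, 6.69 and 6.22 CPM in WT FOXP2 + CHIR cells, and 7.4, 12.6, 9.62, 9.1 and 11.5 CPM in CHIR cells. No other group overlapped mock cells, and the log2 fold change over them was -2.28 ± 0.09 (SE, adjusted p = 1.1e-23) with dhelix FOXP2, -2.79 ± 0.10 (SE, adjusted p = 3.9e-25) with WT FOXP2, and -1.44 ± 0.08 (SE, adjusted p = 1.3e-17) with CHIR. SEMA3G, which also uses NRP2, averaged 0.752 ± 0.159 CPM in dhelix FOXP2 + CHIR cells, 0.587 ± 0.096 CPM in WT FOXP2 + CHIR cells, 0.758 ± 0.224 CPM in CHIR cells, 1.54 ± 0.0622 CPM in dhelix FOXP2 cells, 0.922 ± 0.217 CPM in WT FOXP2 cells and 6.98 ± 0.504 CPM in mock cells. In SEMA3G too, mock cells lay above all others, and its log2 fold change over them was -2.17 with dhelix FOXP2, -2.91 with WT FOXP2, and -3.16 with CHIR (adjusted p = 8.1e-20, 8.9e-22 and 9.1e-22).

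SEMA3A and SEMA3C were the class 3 members that rose with CHIR. SEMA3A acts through NRP1 with a plexin A, and SEMA3C uses either neuropilin. With CHIR, SEMA3A stood at 31.8, 29.2, 29, 32.7 and 26.5 CPM in dhelix FOXP2 + CHIR cells, 24.5, 25.6, 20.7, 22 and 24.3 CPM in WT FOXP2 + CHIR cells, and 59.8, 37.1, 40, 44.7 and 32.7 CPM in CHIR cells. Untreated cells had 10.5, 11.2, 10.8, 10.8 and 11.7 CPM in dhelix FOXP2 cells, 15.8, 15.3, 14.6, 14.5 and 16.7 CPM in WT FOXP2 cells, and 28.5, 28.1, 28.9, 29.7 and 29.9 CPM in mock cells. On the log2 scale SEMA3A differed by 0.57 ± 0.09 (SE, adjusted p = 1.4e-06) in CHIR over mock cells, -1.40 in dhelix FOXP2 over mock cells and -0.91 in WT FOXP2 over mock cells (adjusted p = 1.2e-14 and 4.3e-10). Without the 3 libraries that stood apart, the difference in CHIR over mock cells was 0.38 (adjusted p = 7.3e-07). SEMA3A rose with CHIR also within the FOXP2 groups, by 1.45 ± 0.10 (SE, adjusted p = 2.7e-14) with dhelix FOXP2 and 0.61 ± 0.10 (SE, adjusted p = 4e-06) with WT FOXP2. SEMA3C averaged 79.4 ± 3.72 CPM in dhelix FOXP2 + CHIR cells, 77.9 ± 2.74 CPM in WT FOXP2 + CHIR cells, 186 ± 29.8 CPM in CHIR cells, 63.5 ± 3.99 CPM in dhelix FOXP2 cells, 72.6 ± 4.48 CPM in WT FOXP2 cells and 137 ± 4.04 CPM in mock cells. By its mean SEMA3C was highest in CHIR cells and lowest in dhelix FOXP2 cells, and its log2 fold change was 0.44 ± 0.06 (SE, adjusted p = 1.1e-07) in CHIR over mock cells, or 0.3 without the 3 libraries that stood apart. SEMA3D, the remaining member of class 3, had 5 to 64 counts per library, and fell in CHIR over mock cells (-1.63 ± 0.22 SE, adjusted p = 2.9e-08).

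Class 4 semaphorins span the membrane and bind plexins B and others. Over mock cells, 4 of 6 fell with dhelix FOXP2, 5 with WT FOXP2 and 3 with CHIR. Of all genes 40.9%, 41.6% and 35.3% passed as lower in these contrasts. In either direction 5, 6 and 3 of the 6 passed, beside 80.5%, 81.6% and 74.1% of all genes. The class medians were -0.33, -0.35 and -0.76 on the log2 scale. SEMA4A, known in mouse for costimulating T cells, was the class member that rose with FOXP2. Its 5 libraries held 17, 15, 10, 19 and 19 counts in dhelix FOXP2 + CHIR cells, 35, 35, 17, 24 and 18 counts in WT FOXP2 + CHIR cells, and 1, 0, 1, 0 and 0 counts in CHIR cells. Without CHIR it had 13, 25, 22, 13 and 11 counts in dhelix FOXP2 cells, 16, 28, 14, 32 and 32 counts in WT FOXP2 cells, and 0, 1, 3, 1 and 2 counts in mock cells. SEMA4A was near 0 in all 10 libraries without FOXP2 and low in the others. Over CHIR cells, whose 5 libraries held 2 counts in all, the ratio was 40.2 with dhelix FOXP2 (95% counting interval 10.8 to 338) and 57.5 with WT FOXP2 (interval 15.6 to 480.3). These intervals cover counting error only. Over mock cells the log2 fold change was 3.13 ± 0.40 (SE) with dhelix FOXP2 and 4.04 ± 0.36 (SE) with WT FOXP2. SEMA4A passed the low-count filter only through the groups with FOXP2, where it was higher. Its calls over mock cells and over CHIR cells are therefore not independent of the filter, and no p-value is given for them.

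SEMA4D, the ligand of plexin B1 by which osteoclasts hold back osteoblasts in mouse, turned its direction with CHIR. It stood at 32.7, 36.3, 35.1, 31.8 and 34.5 CPM in dhelix FOXP2 + CHIR cells, 30.9, 32.3, 32, 30.4 and 32.4 CPM in WT FOXP2 + CHIR cells, and 15.6, 15.7, 17.5, 17.8 and 14.6 CPM in CHIR cells. In untreated cells it stood at 23.8, 24.1, 24.1, 25 and 26.4 CPM in dhelix FOXP2 cells, 21.9, 23.5, 22.5, 21.9 and 23.1 CPM in WT FOXP2 cells, and 29.9, 26.3, 27.8, 28.2 and 28.6 CPM in mock cells. CHIR cells were below all others. SEMA4D fell with WT FOXP2 over mock cells (-0.32 ± 0.05 SE, adjusted p = 5.4e-07) and rose with it over CHIR cells (0.96 ± 0.05 SE, adjusted p = 1.1e-18), an interaction of 1.28 ± 0.07 (SE, adjusted p = 1.2e-17). For dhelix FOXP2 the interaction was 1.26 ± 0.07 (SE, adjusted p = 1.3e-17). SEMA4C, a ligand of plexin B2, averaged 54.7 ± 1.23 CPM in dhelix FOXP2 + CHIR cells, 52.2 ± 1.87 CPM in WT FOXP2 + CHIR cells, 89.6 ± 13.3 CPM in CHIR cells, 64.4 ± 2.17 CPM in dhelix FOXP2 cells, 68.5 ± 1.73 CPM in WT FOXP2 cells and 89 ± 3.32 CPM in mock cells. Of the other ligands of this class, SEMA4B averaged between 21.2 CPM in CHIR cells and 45.9 in mock cells, SEMA4F between 22.1 in WT FOXP2 + CHIR cells and 57.3 in mock cells, and SEMA4G between 4.44 in WT FOXP2 cells and 7.94 in mock cells.

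SEMA5A, a transmembrane ligand of plexin B3 with thrombospondin repeats, was lowest in mock cells. With CHIR it stood at 8.86, 10.1, 10.9, 9.59 and 12.3 CPM in dhelix FOXP2 + CHIR cells, 12, 9.29, 11.7, 10.6 and 11.7 CPM in WT FOXP2 + CHIR cells, and 5.86, 5.16, 5.61, 7.08 and 6.01 CPM in CHIR cells. Its level without CHIR was 7.55, 7.74, 6.25, 7.26 and 7.99 CPM in dhelix FOXP2 cells, 8.61, 11.4, 10, 10.5 and 11.3 CPM in WT FOXP2 cells, and 2.92, 2.45, 2.77, 2.26 and 2.25 CPM in mock cells. No library of another group fell as low as the mock libraries, and CHIR cells and dhelix FOXP2 cells overlapped. It rose over mock cells by 1.52 ± 0.11 (SE, adjusted p = 6.1e-15) with dhelix FOXP2, by 2.02 ± 0.11 (SE, adjusted p = 6.3e-19) with WT FOXP2, and by 1.21 ± 0.12 (SE, adjusted p = 3.4e-11) with CHIR on the log2 scale. SEMA5A and SEMA7A rose with both constructs and with CHIR. SEMA4A was the other ligand that passed as higher with both constructs, with the limit of the filter given above, and it did not pass with CHIR.

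The 4 class 6 semaphorins, transmembrane ligands of the A plexins, all fell with WT FOXP2 over mock cells (background 41.6% lower), and their median was -2.17 on the log2 scale. SEMA6A binds plexins A2 and A4. It stood at 17.2, 12.9, 13.2, 18.4 and 10.3 CPM in dhelix FOXP2 + CHIR cells, 9.9, 9.48, 10.1, 8.8 and 9.18 CPM in WT FOXP2 + CHIR cells, and 34.5, 35, 37.9, 37.9 and 30.2 CPM in CHIR cells. Without CHIR SEMA6A was at 3.27, 3.75, 3.96, 3.78 and 3.16 CPM in dhelix FOXP2 cells, 3.87, 4.24, 3.56, 4.3 and 4.27 CPM in WT FOXP2 cells, and 27.1, 28.1, 25.8, 26.3 and 25.7 CPM in mock cells. All 20 libraries with FOXP2 lay below all 10 without it. The log2 fold change over mock cells was -2.88 ± 0.10 (SE, adjusted p = 1.1e-24) with dhelix FOXP2 and -2.70 ± 0.11 (SE, adjusted p = 1.9e-23) with WT FOXP2, and over CHIR cells it was -1.28 ± 0.09 (SE, adjusted p = 1.1e-15) and -1.88 ± 0.09 (SE, adjusted p = 3.2e-20). SEMA6A rose with CHIR by 0.40 without FOXP2, and by 2.00 and 1.22 with dhelix and WT FOXP2.

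SEMA6B, the ligand with the highest level per length in mock cells, stood at 34.6, 35.1, 35.6, 33 and 38.4 CPM in dhelix FOXP2 + CHIR cells, 26.5, 30.7, 29.7, 28.5 and 30.4 CPM in WT FOXP2 + CHIR cells, and 45.8, 85.5, 80.3, 62.2 and 85.6 CPM in CHIR cells. Without CHIR it was at 48.8, 44.5, 45.9, 45 and 44.8 CPM in dhelix FOXP2 cells, 34.9, 27.6, 31.5, 27.4 and 28.9 CPM in WT FOXP2 cells, and 153, 146, 147, 151 and 161 CPM in mock cells. Mock cells lay above all other libraries. SEMA6B fell over mock cells with dhelix FOXP2, WT FOXP2 and CHIR, at log2 fold changes of -1.73, -2.34 and -1.08 (adjusted p = 1.6e-16, 2.2e-19 and 1.7e-11). SEMA6C also fell over mock cells with either construct and with CHIR, and averaged between 3.36 CPM in WT FOXP2 cells and 13.5 CPM in mock cells. SEMA6D, a ligand of plexin A1 with a role in heart formation in chick, was low, at 2.01 ± 0.476 CPM in dhelix FOXP2 + CHIR cells, 1.2 ± 0.113 CPM in WT FOXP2 + CHIR cells, 0.528 ± 0.132 CPM in CHIR cells, 1.08 ± 0.19 CPM in dhelix FOXP2 cells, 0.541 ± 0.11 CPM in WT FOXP2 cells and 1.27 ± 0.187 CPM in mock cells. SEMA6D rose over CHIR cells with dhelix FOXP2 (1.91 ± 0.20 SE, adjusted p = 7e-11) and with WT FOXP2 (1.18 ± 0.21 SE, adjusted p = 6.2e-06).

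Among the A plexins, which serve class 3 semaphorins with a neuropilin and class 6 semaphorins alone, PLXNA2 rose with FOXP2. With CHIR, PLXNA2 stood at 17.8, 20.3, 18.4, 19.8 and 20.9 CPM in dhelix FOXP2 + CHIR cells, 20.9, 20.3, 22.5, 20.8 and 20.1 CPM in WT FOXP2 + CHIR cells, and 4.11, 6.28, 5.56, 6.06 and 5.12 CPM in CHIR cells. In untreated cells it was at 60.3, 69.1, 65.6, 66.8 and 69.7 CPM in dhelix FOXP2 cells, 87.4, 103, 103, 101 and 95.9 CPM in WT FOXP2 cells, and 11.5, 10.8, 11.6, 12.3 and 12.2 CPM in mock cells. WT FOXP2 cells were above all others, dhelix FOXP2 cells came next, and CHIR cells were lowest. The groups overlapped only between dhelix FOXP2 + CHIR and WT FOXP2 + CHIR cells. Over mock cells its log2 fold change was 2.51 ± 0.06 (SE, adjusted p = 1.8e-29) with dhelix FOXP2, 3.07 ± 0.06 (SE, adjusted p = 2.9e-32) with WT FOXP2, and -1.11 ± 0.09 (SE, adjusted p = 2.7e-14) with CHIR. PLXNA2 fell with CHIR also in the FOXP2 groups, at -1.77 ± 0.06 (SE, adjusted p = 1.8e-24) for dhelix and -2.23 ± 0.06 (SE, adjusted p = 6.9e-28) for WT. PLXNA2 therefore rose with FOXP2 while its ligand SEMA6A fell.

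PLXNA4, the other receptor of SEMA6A, lost most of its level with CHIR alone. With CHIR it stood at 5.69, 6.04, 5.71, 6.4 and 6.75 CPM in dhelix FOXP2 + CHIR cells, 3.53, 4.08, 3.43, 3.34 and 4.05 CPM in WT FOXP2 + CHIR cells, and 0.411, 0.809, 1.08, 0.505 and 1.19 CPM in CHIR cells. In its absence PLXNA4 was at 7.19, 6.65, 6.7, 6.62 and 5.34 CPM in dhelix FOXP2 cells, 5.84, 6.58, 6.44, 5.51 and 5.1 CPM in WT FOXP2 cells, and 7.39, 7.98, 7.16, 6.44 and 8.59 CPM in mock cells. CHIR cells lay below all other libraries. PLXNA4 had a log2 fold change of -3.21 ± 0.15 (SE, adjusted p = 1.7e-20) in CHIR over mock cells, 2.92 ± 0.16 (SE, adjusted p = 1.9e-18) in dhelix FOXP2 + CHIR over CHIR cells, and 2.19 ± 0.17 (SE, adjusted p = 5.3e-14) in WT FOXP2 + CHIR over CHIR cells. Over mock cells it was -0.20 ± 0.10 (SE, adjusted p = 0.057) with dhelix FOXP2, which did not pass, and -0.36 ± 0.10 (SE, adjusted p = 0.0017) with WT FOXP2. The interaction was 3.12 ± 0.19 (SE, adjusted p = 1.2e-16) for dhelix and 2.55 ± 0.20 (SE, adjusted p = 1.5e-13) for WT.

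PLXNA3 stood at 56.3, 53.4, 56.7, 50.5 and 58.1 CPM in dhelix FOXP2 + CHIR cells, 53.9, 58.5, 56.6, 53 and 58.5 CPM in WT FOXP2 + CHIR cells, and 38.2, 56.8, 61.1, 50.9 and 52 CPM in CHIR cells. Without CHIR it stood at 28.4, 27.6, 30.1, 28.2 and 27.9 CPM in dhelix FOXP2 cells, 25.6, 28.7, 25.9, 29 and 28 CPM in WT FOXP2 cells, and 52, 45.5, 48.2, 50 and 48.7 CPM in mock cells. Both FOXP2 groups without CHIR lay below every other library. PLXNA3 fell with dhelix FOXP2 (-0.78 ± 0.07 SE, adjusted p = 1.9e-12) and WT FOXP2 (-0.83 ± 0.07 SE, adjusted p = 6.9e-13) over mock cells. It rose with CHIR within the FOXP2 groups, by 0.95 for dhelix and 1.03 for WT (adjusted p = 3.6e-14 and 6.2e-15). PLXNA1, the A plexin of highest level, averaged 282 ± 10.3 CPM in dhelix FOXP2 + CHIR cells, 268 ± 11.3 CPM in WT FOXP2 + CHIR cells, 183 ± 27.1 CPM in CHIR cells, 227 ± 3.52 CPM in dhelix FOXP2 cells, 241 ± 4.27 CPM in WT FOXP2 cells and 230 ± 8.84 CPM in mock cells. It passed as lower in CHIR over mock cells (-0.33 ± 0.06 SE, adjusted p = 6.3e-06) and in neither FOXP2 group over mock cells (adjusted p = 0.79 with dhelix and 0.27 with WT FOXP2).

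All 3 B plexins, receptors of class 4 semaphorins and of SEMA5A, fell with either construct over mock cells, where 40.9% of all genes with dhelix and 41.6% with WT FOXP2 passed as lower. PLXNB1, the SEMA4D receptor, averaged 53.3 ± 3.56 CPM in dhelix FOXP2 + CHIR cells, 52.7 ± 2.33 CPM in WT FOXP2 + CHIR cells, 94 ± 14.3 CPM in CHIR cells, 30.8 ± 1.54 CPM in dhelix FOXP2 cells, 29.3 ± 0.402 CPM in WT FOXP2 cells and 92.4 ± 5.01 CPM in mock cells. Its log2 fold change over mock cells was -1.58 ± 0.07 (SE, adjusted p = 1e-21) with dhelix FOXP2 and -1.66 ± 0.07 (SE, adjusted p = 5.3e-22) with WT FOXP2, and that of CHIR over mock cells was 0.02 ± 0.06 (SE, adjusted p = 0.76), which did not pass. PLXNB2 averaged 427 ± 19.8 CPM in dhelix FOXP2 + CHIR cells, 388 ± 22.3 CPM in WT FOXP2 + CHIR cells, 461 ± 71.7 CPM in CHIR cells, 281 ± 6.39 CPM in dhelix FOXP2 cells, 269 ± 9.31 CPM in WT FOXP2 cells and 429 ± 13.5 CPM in mock cells, and its log2 fold change over mock cells was -0.61 with dhelix and -0.67 with WT FOXP2 (adjusted p = 1.9e-10 and 2.4e-11). Within the FOXP2 groups PLXNB1 rose with CHIR by 0.79 with dhelix and 0.85 with WT FOXP2, and PLXNB2 by 0.61 and 0.53 on the log2 scale. PLXNB3, the receptor of SEMA5A, fell over mock cells with dhelix FOXP2 (-1.51 ± 0.12 SE, adjusted p = 3.5e-14), WT FOXP2 (-1.75 ± 0.13 SE, adjusted p = 4.4e-15) and CHIR (-0.96 ± 0.12 SE, adjusted p = 4.8e-09), in the contrasts in which SEMA5A rose. The reads it may share with SRPK3 bear on this value, and their part was not tested.

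The co-receptors differed from each other. NRP1 binds SEMA3A and VEGF and was the neuropilin in use by level. With CHIR, NRP1 stood at 394, 358, 369.9, 398 and 328 CPM in dhelix FOXP2 + CHIR cells, 335, 352, 327, 334 and 349.8 CPM in WT FOXP2 + CHIR cells, and 746, 621, 664, 689 and 605 CPM in CHIR cells. In untreated cells NRP1 stood at 192, 179, 189.8, 186 and 188 CPM in dhelix FOXP2 cells, 246, 233, 232, 215 and 227 CPM in WT FOXP2 cells, and 208, 212, 213, 209 and 199.6 CPM in mock cells. CHIR cells lay above all other libraries, and the CHIR-treated FOXP2 groups lay above all untreated groups. The log2 fold change in CHIR over mock cells was 1.67 ± 0.05 (SE, adjusted p = 2.1e-27). Over mock cells the FOXP2 differences were small and of opposite sign, at -0.16 ± 0.05 (SE, adjusted p = 0.0029) for dhelix, which did not pass without the low-count filter (adjusted p = 0.097), and 0.14 ± 0.05 (SE, adjusted p = 0.0058) for WT. Over CHIR cells NRP1 fell with both constructs, at -0.85 ± 0.05 (SE, adjusted p = 1.8e-18) for dhelix and -0.97 ± 0.05 (SE, adjusted p = 2.5e-20) for WT. The interaction was -0.69 ± 0.07 (SE, adjusted p = 1.8e-11) for dhelix and -1.11 ± 0.07 (SE, adjusted p = 4.4e-17) for WT.

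NRP2, the co-receptor of SEMA3F and SEMA3G, was low, with 8 to 63 counts per library. With CHIR it stood at 2.31, 2.46, 2.36, 3.2 and 1.58 CPM in dhelix FOXP2 + CHIR cells, 1.14, 1.47, 1.58, 1.23 and 1.31 CPM in WT FOXP2 + CHIR cells, and 1.39, 1.74, 1.32, 1.52 and 1.37 CPM in CHIR cells. NRP2 in untreated cells was at 0.791, 1.16, 0.938, 0.794 and 0.882 CPM in dhelix FOXP2 cells, 0.492, 0.798, 0.875, 0.602 and 0.675 CPM in WT FOXP2 cells, and 2.19, 2.45, 2.08, 2.44 and 1.67 CPM in mock cells. WT FOXP2 cells overlapped with dhelix FOXP2 cells and lay below all libraries of the other groups. NRP2 fell over mock cells with dhelix FOXP2 (-1.24 ± 0.16 SE, adjusted p = 7.8e-09), WT FOXP2 (-1.65 ± 0.18 SE, adjusted p = 1.4e-10) and CHIR (-0.57 ± 0.16 SE, adjusted p = 0.0016). Within the FOXP2 groups it rose with CHIR, by 1.37 ± 0.16 (SE, adjusted p = 2.2e-09) for dhelix and 0.96 ± 0.20 (SE, adjusted p = 5.7e-05) for WT on the log2 scale. NRP2 and its ligands SEMA3F and SEMA3G all fell over mock cells with dhelix FOXP2, with WT FOXP2 and with CHIR, while the mean of NRP2 in dhelix FOXP2 + CHIR cells, 2.38 ± 0.576 CPM, was near that of mock cells, 2.17 ± 0.319 CPM.

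In CHIR-treated cells members moved both ways when FOXP2 was added. Over CHIR cells, 13 rose and 12 fell of 30 with dhelix FOXP2 (background 75.9% in either direction, 37.0% higher and 38.9% lower), and 11 rose and 14 fell with WT FOXP2 (background 78.4% in either direction, 38.2% higher and 40.2% lower). The shares in each direction were near the background. With the compared groups alone, 11 rose and 12 fell with WT FOXP2. The members that rose include SEMA4A, with the limit of the filter given above. The median log2 fold change was 0.03 with dhelix FOXP2 and -0.25 with WT FOXP2, where it was -0.03 over all genes in each contrast. The interaction, which is the FOXP2 difference on CHIR minus the FOXP2 difference without CHIR, was positive in 21 and negative in 6 of 30 members at an adjusted p under 0.05 for dhelix, beside 64.8% of all genes in either direction, 31.2% positive and 33.7% negative. For WT it was positive in 20 and negative in 7, beside 65.6%, 30.7% and 34.9%. Its median over members was 0.82 for dhelix and 0.84 for WT, against 0.00 and -0.02 over all genes. All 4 class 6 ligands had a positive interaction with either construct, and among receptors NRP1, PLXNC1 and PLXNA2 had a negative one with either construct.

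**Figure D4:**
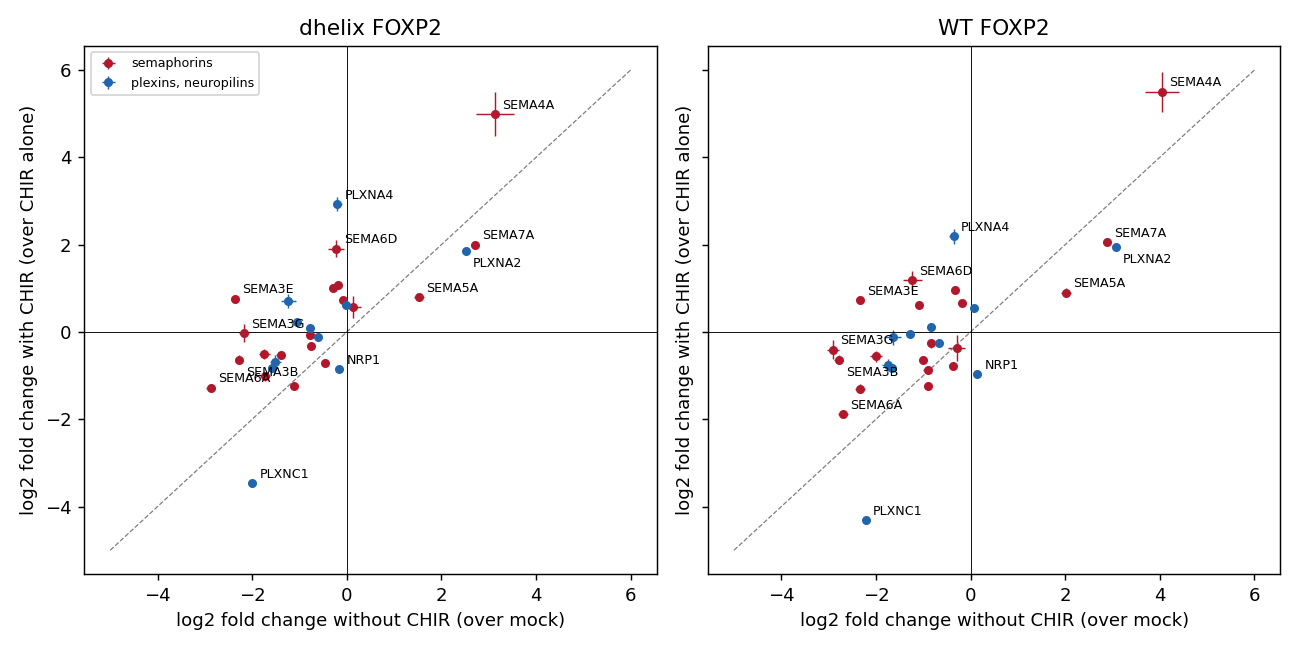
Log2 fold change of each tested member with FOXP2 over CHIR cells (vertical) against that with FOXP2 over mock cells (horizontal), for dhelix FOXP2 (left) and WT FOXP2 (right), with SE bars; the dashed line marks equal changes. Points above the line have a positive interaction; SEMA3E and PLXNA4 lie far above it, and PLXNC1, NRP1, SEMA7A and PLXNA2 lie below it. The axes share no libraries.

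The constructs also differed from each other. Without CHIR, 9 of 30 members were higher and 7 lower in dhelix FOXP2 than in WT FOXP2 cells, beside 35.6% of all genes in either direction, 16.9% higher and 18.7% lower. Ligands made up 13 of these 16 and receptors 3. SEMA6D rose (1.01 ± 0.20 SE, adjusted p = 0.00013) at about 1 CPM, and so did SEMA3F (0.82 ± 0.06 SE, adjusted p = 2.1e-13), SEMA3G (0.74 ± 0.16 SE, adjusted p = 0.00029) and SEMA6B (0.62 ± 0.11 SE, adjusted p = 2.8e-05), and in each of these the libraries of both groups did not overlap. The largest fall was that of SEMA4A (-0.91), which averaged 0.622 CPM in dhelix FOXP2 and 1.17 CPM in WT FOXP2 cells, with libraries that overlapped. PLXNA2 fell (-0.56 ± 0.05 SE, adjusted p = 8.8e-11), as did SEMA5A (-0.51 ± 0.09 SE, adjusted p = 2.7e-05), SEMA3A (-0.49 ± 0.11 SE, adjusted p = 0.00051) and NRP1 (-0.30 ± 0.05 SE, adjusted p = 3.9e-06). SEMA3C, SEMA3D and SEMA4D were close to the threshold here (adjusted p = 0.019, 0.046 and 0.046). SEMA3C lost its call without WT replicate 1 or 5 or dhelix replicate 2, 3 or 4 (adjusted p = 0.052 to 0.11). SEMA3D lost it without WT replicate 2 or 3 or dhelix replicate 1 or 5 (adjusted p = 0.077 to 0.23), and SEMA4D without WT replicate 1, 3 or 4 or dhelix replicate 4 or 5 (adjusted p = 0.051 to 0.11). SEMA3D and SEMA4D also lost it without the 3 libraries that stood apart (adjusted p = 0.066 and 0.063). SEMA3D lost it with DESeq2, without the low-count filter and with the compared groups alone (adjusted p = 0.055 to 0.091), and SEMA4D with DESeq2's size factors in edgeR (adjusted p = 0.052). In 12 of the 16 the dhelix FOXP2 mean lay between the WT FOXP2 mean and the mock mean, and in 4, SEMA3A, SEMA3C, SEMA3D and NRP1, it lay outside them. The same share over all genes was not computed, so this count cannot be read as particular to the members. FOXP2 itself averaged 5319 CPM in dhelix FOXP2 and 7076 CPM in WT FOXP2 cells. The part of the FOXP2 level was not tested.

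On CHIR, 11 of 30 members were higher with dhelix than with WT FOXP2 and 0 lower by edgeR, beside 30.6% of all genes in either direction, 16.6% higher and 13.9% lower. SEMA4A, the 1 member lower at an unadjusted p under 0.05, had -0.51 ± 0.21 (SE, adjusted p = 0.067), and passed with the compared groups alone (adjusted p = 0.048) and without WT + CHIR replicate 3 (adjusted p = 0.032). DESeq2 called 11 higher and 0 lower. The median was 0.12 on the log2 scale against 0.01 over all genes. PLXNC1 (0.85 ± 0.10 SE, adjusted p = 2.9e-08), SEMA6D (0.73 ± 0.16 SE, adjusted p = 0.00063), PLXNA4 (0.73 ± 0.12 SE, adjusted p = 6e-06) and SEMA6A (0.60 ± 0.10 SE, adjusted p = 1.1e-05) were among those higher, and NRP2 was higher by 0.83 ± 0.16 (SE, adjusted p = 9.5e-05). NRP1 passed narrowly, at 0.12 ± 0.05 (SE, adjusted p = 0.044). NRP1 lost its call without any single library of WT FOXP2 + CHIR cells or without dhelix FOXP2 + CHIR replicate 1, 2, 3 or 4 (adjusted p = 0.051 to 0.17), and without the 3 libraries that stood apart (adjusted p = 0.099). The call was also lost with DESeq2, with its size factors in edgeR, without the low-count filter, with a filter at a mean of 1 CPM and with the compared groups alone (adjusted p = 0.059 to 0.1). FOXP2 averaged 13481 CPM in dhelix FOXP2 + CHIR and 15299 CPM in WT FOXP2 + CHIR cells. The change of the construct difference with CHIR passed in 9 members, 7 positive and 2 negative, beside 14.2% of all genes, 8.93% positive and 5.29% negative. It was 0.84 ± 0.14 (SE, adjusted p = 0.00013) for SEMA3A, 0.78 ± 0.17 (SE, adjusted p = 0.0011) for SEMA6A, 0.46 ± 0.08 (SE, adjusted p = 0.00022) for PLXNA2 and 0.42 ± 0.07 (SE, adjusted p = 2.7e-05) for NRP1. SEMA5A passed too, at 0.41 ± 0.13 (SE, adjusted p = 0.027), and lost its call (adjusted p = 0.05 to 0.093) without WT replicate 2 or 5, dhelix replicate 3 or 4, WT + CHIR replicate 2, or dhelix + CHIR replicate 2, 3 or 5, and without the low-count filter (adjusted p = 0.084).

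Adding CHIR to FOXP2-expressing cells moved members both ways. In dhelix FOXP2 + CHIR over dhelix FOXP2 cells 15 rose and 10 fell (background 63.2% in either direction, 34.1% higher and 29.1% lower), and in WT FOXP2 + CHIR over WT FOXP2 cells 13 rose and 10 fell (background 64.9% in either direction, 34.8% higher and 30.2% lower). Of the receptors, 7 of 11 rose with dhelix and 6 with WT FOXP2. The count with WT FOXP2 includes PLXNA1, which lost its call without WT replicate 1 or WT + CHIR replicate 2 (adjusted p = 0.059 and 0.056). SEMA6A, SEMA3A, PLXNA3, PLXNB1, NRP1 and NRP2 rose with both constructs, and PLXNA2, SEMA3E and SEMA3D fell with both. SEMA3E fell by 0.80 ± 0.07 (SE, adjusted p = 3.6e-12) with dhelix and by 0.87 ± 0.07 (SE, adjusted p = 4.6e-13) with WT FOXP2 on the log2 scale.

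Beyond the ligands and receptors, a list of 50 further genes of semaphorin signalling was examined, of which 46 were tested. With WT FOXP2 over mock cells 18 rose and 22 fell, with CHIR over mock cells 13 rose and 25 fell, and with WT FOXP2 + CHIR over CHIR cells 15 rose and 21 fell. Over all genes 81.6%, 74.1% and 78.4% passed in either direction in these contrasts, and the shares of the list in either direction were near this background. By direction, 39.9%, 38.8% and 38.2% of all genes passed as higher and 41.6%, 35.3% and 40.2% as lower. With CHIR over mock cells the list therefore leaned to lower levels. The medians of the list were -0.11, -0.12 and -0.11 on the log2 scale. MET, a receptor tyrosine kinase that associates with B plexins, rose over mock cells with WT FOXP2 (2.18 ± 0.05 SE, adjusted p = 1.8e-31) and with CHIR (1.97 ± 0.05 SE, adjusted p = 8.7e-30). L1CAM, an adhesion molecule that partners NRP1 in the SEMA3A receptor, fell over mock cells with WT FOXP2 (-3.06 ± 0.10 SE, adjusted p = 1.8e-23) and with CHIR (-3.21 ± 0.10 SE, adjusted p = 1.5e-23). Both belong to the 8 tested co-receptors and other receptors of the list. With WT FOXP2 + CHIR over CHIR cells, 0 of these 8 passed as higher and 3 as lower, with log2 fold changes of -1.31 to 0.32. DPYSL5, of the collapsin response mediator family that relays semaphorin signals in neurons, fell with WT FOXP2 over mock cells (-2.92 ± 0.12 SE, adjusted p = 8.7e-23), with CHIR over mock cells (-1.56 ± 0.10 SE, adjusted p = 3.6e-16), and with WT FOXP2 + CHIR over CHIR cells (-1.67 ± 0.15 SE, adjusted p = 1.4e-12).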

How the data were processed

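Messenger RNA of 30 U2OS samples, 6 groups of 5, was sequenced from strand-marking libraries, per the labels' protocols. Biological replicates is the labels' word for the 5 samples of each group, with no mention of separate cultures, so p-values measure the spread between these samples. A WT FOXP2 + CHIR sample whose genotype label omits the word WT was grouped by its title. The values are raw counts per gene as the authors deposited them. For alignment and counting, the submitters' processing notes list hg19, STAR 2.6.1a, Subread's featureCounts and DESeq2. Neither the strand setting nor the annotation release is given in the sources used here.

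Of 57373 genes, edgeR's filterByExpr (minimum count 10) kept 18485 with 99.9% of all counts. Libraries held 15755842 to 29466652 counts, with a biological coefficient of variation of 5.6% in common. With TMM scaling, a single robust quasi-likelihood fit over the 30 libraries (edgeR 4.0.16, limma 3.58.1, R 4.3.3) gave 9 contrasts between groups and 3 interactions. P-values were adjusted by Benjamini-Hochberg over the 18485 genes, with a threshold of 0.05. An SE is the size of the log2 fold change divided by the square root of F. CPM use the scaled library sizes, and RPKM use GENCODE v29 exon lengths (GRCh38) matched by Ensembl ID. Start-site windows are RefSeq sequence of GRCh38.p14. The steps were tested on simulated data. Alternatives were DESeq2 1.42.0, its size factors in edgeR, other low-count filters, FOXP2 left out of library sizes, the compared groups alone, a replicate block, no libraries that stood apart, and each library left out in turn.

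The members, lists and tests were chosen with earlier results of these data known. Values are given in full for NRP1 and NRP2, for up to 3 members per direction and contrast (the largest log2 fold changes past the threshold, averaging 1 CPM or more, with groups that do not overlap), and for the 4 members of smallest p in each interaction. Other members complete the family. From the further signalling genes up to 4 per direction qualified by size, and of these MET, L1CAM and DPYSL5 were picked after their values were seen. The AP-1 motif and the account of all tested VEGF genes were also chosen after values were seen.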

Additional observations from a re-analysis of the deposited data

Results flagged for a closer look

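Of 180 sets of 5 libraries examined, a set being 1 member in 1 group, 5 had a library whose gap to its nearest neighbour was large for the range of the set, where chance gives about 1 in 20 sets. PLXNA1 had 136 CPM in CHIR replicate 1, where the other 4 libraries had 187 to 203 CPM. SEMA3C had 237 CPM in CHIR replicate 1, where the other 4 libraries had 165 to 184 CPM. PLXND1 had 66.6 CPM in dhelix FOXP2 replicate 1, where the other 4 libraries had 70.4 to 71.4 CPM. SEMA3D had 0.496 CPM in dhelix FOXP2 + CHIR replicate 4, where the other 4 libraries had 0.745 to 0.844 CPM. SEMA4G had 5.45 CPM in dhelix FOXP2 + CHIR replicate 2, where the other 4 libraries had 6.81 to 7.32 CPM.

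By edgeR's interaction test the difference of FOXP2 cells from cells without a construct changed with CHIR in 27 members for dhelix and 27 for WT. The difference between the constructs changed with CHIR in 9. Of all genes 64.8%, 65.6% and 14.2% passed in these tests. FOXP2 averaged 13481 CPM with CHIR and 5319 CPM without it for dhelix, and 15299 and 7076 CPM for WT. The part of this level in the interactions was not tested. Given here are the 4 members of smallest p in each test, and both neuropilins where they passed. For SEMA3E the WT FOXP2 difference on CHIR minus that without CHIR was 3.06 ± 0.11 (SE, adjusted p = 3.4e-24) on the log2 scale, and the dhelix one was 3.13 ± 0.11 (SE, adjusted p = 2.2e-24). For SEMA3F these values were 1.71 ± 0.09 (SE, adjusted p = 2e-18) and 1.30 ± 0.09 (SE, adjusted p = 2.3e-15). SEMA4D had 1.28 ± 0.07 (SE, adjusted p = 1.2e-17) for WT and 1.26 ± 0.07 (SE, adjusted p = 1.3e-17) for dhelix. PLXNA4 had 3.12 ± 0.19 (SE, adjusted p = 1.2e-16) for dhelix. Among the neuropilins, NRP1 had -1.11 ± 0.07 (SE, adjusted p = 4.4e-17) for WT and -0.69 ± 0.07 (SE, adjusted p = 1.8e-11) for dhelix, and NRP2 had 1.53 ± 0.25 (SE, adjusted p = 2e-06) for WT and 1.94 ± 0.23 (SE, adjusted p = 1.7e-09) for dhelix. The difference of dhelix over WT FOXP2 changed with CHIR by 0.84 ± 0.14 (SE, adjusted p = 0.00013) for SEMA3A, 0.78 ± 0.17 (SE, adjusted p = 0.0011) for SEMA6A, 0.46 ± 0.08 (SE, adjusted p = 0.00022) for PLXNA2 and 0.42 ± 0.07 (SE, adjusted p = 2.7e-05) for NRP1.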

How the results depend on the processing

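Each count of members called was recomputed under 8 alternatives and with each of the 30 libraries left out, and stayed within 1.5 times the value reported in all of them. With 1 library left out it ranged from 28 to 28 for WT FOXP2 over mock cells, 25 to 26 for dhelix FOXP2 over mock cells, 24 to 26 for CHIR over mock cells, 24 to 26 for WT FOXP2 + CHIR over CHIR cells, 25 to 27 for dhelix FOXP2 + CHIR over CHIR cells, 14 to 15 for dhelix over WT FOXP2 cells and 10 to 11 for the same on CHIR. CHIR added to FOXP2 cells gave 25 to 26 with dhelix and 22 to 24 with WT, and the interactions gave 27 to 28 for dhelix, 27 to 28 for WT and 8 to 9 for the construct difference. Of the 265 calls on members in 360 tests, 10 were lost in some alternative, 30 others were gained, and 0 reversed. This tally covers only members that an alternative still tested. The filter at a mean of 1 CPM removed SEMA4A, so its calls were not recomputed there and do not count as lost. With that filter 4 members rose with WT FOXP2 over mock cells, where 5 did before, and 3 with dhelix FOXP2, where 4 did before. Besides those named in the report, the lost calls were SEMA4G in WT FOXP2 + CHIR over CHIR cells (adjusted p = 0.056 to 0.14), PLXNB2 in the same contrast when its groups were fitted alone (adjusted p = 0.051), and SEMA4D in dhelix FOXP2 over mock cells without the low-count filter (adjusted p = 0.1). The replicate block moved dhelix over WT FOXP2 to 15 members (SEMA4D no longer passed, adjusted p = 0.056) and WT FOXP2 + CHIR over WT FOXP2 to 24 (SEMA7A passed, adjusted p = 0.025), and changed no other count. Libraries of the same number did not deviate together (correlations of -0.23 to 0.3), and 9 of 30 correlated best with their own number. With the compared groups fitted alone, dhelix over WT FOXP2 gave 20 members and its change with CHIR 13. Depth limits the tested members of lowest level, SEMA3D, SEMA3G, SEMA4A, SEMA6D and NRP2, which had the largest SEs by the median over contrasts.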

Other observations

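The VEGF family supplies further ligands of the neuropilins. VEGFA, VEGFB, VEGFC and PGF were tested, and all 4 passed with WT FOXP2 over mock cells, with CHIR over mock cells and with WT FOXP2 + CHIR over CHIR cells, where 81.6%, 74.1% and 78.4% of all genes passed. PGF, placental growth factor, averaged 55.1 CPM in dhelix FOXP2 + CHIR cells, 45.8 CPM in WT FOXP2 + CHIR cells, 3.42 CPM in CHIR cells, 31 CPM in dhelix FOXP2 cells, 21 CPM in WT FOXP2 cells and 15 CPM in mock cells. Its log2 fold change was 4.01 ± 0.07 (SE, adjusted p = 3.3e-34) in dhelix FOXP2 + CHIR over CHIR cells, 3.74 ± 0.07 (SE, adjusted p = 2.5e-33) in WT FOXP2 + CHIR over CHIR cells, and -2.13 ± 0.07 (SE, adjusted p = 9e-25) in CHIR over mock cells. VEGFA rose with WT FOXP2 over mock cells (0.78 ± 0.04 SE, adjusted p = 4.3e-19) and with CHIR (1.28 ± 0.04 SE, adjusted p = 1.6e-25). VEGFC rose with WT FOXP2 over mock cells (2.21 ± 0.09 SE, adjusted p = 1.1e-22) and fell with CHIR (-0.92 ± 0.13 SE, adjusted p = 4.3e-08). VEGFB fell with WT FOXP2 over mock cells (-0.91 ± 0.06 SE, adjusted p = 4.2e-16) and with CHIR (-0.27 ± 0.06 SE, adjusted p = 0.00014). In CHIR over mock cells VEGFA and NRP1 were both higher, while PGF, VEGFC and VEGFB were lower.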
